A study of Mus musculus with 4 samples.

Results

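The comparison set a KPC pancreatic tumour treated with AF12198 against a saline-treated control KPC tumour, across all cells of each tumour. Its members were every cell barcode of the 2 tumour libraries with at least 760 unique molecular identifiers (UMIs, counts of captured RNA molecules), at least 250 detected genes and at most 20% of UMIs from mitochondrial genes. These were 40395 cells, 21398 from the control tumour and 18997 from the AF12198-treated tumour, of 42662 cells that passed the same limits in the 4 mouse libraries of the study and of 48038 barcodes deposited. KPC cells, a mouse model of pancreatic cancer, had been placed in both cases in a pancreas ligated with a suture, which blocks the duct and causes pancreatitis. Mice then received saline or AF12198 into the peritoneum once a week, and tissue was taken at 4 weeks. The other libraries came from a normal pancreas and a ligated pancreas and gave 1306 and 961 cells under the same limits. Strain, sex, age and the number of mice behind a library were not given in the sources used here, and the cells of both tumours include host cells beside the implanted ones. Each condition was 1 library, so no difference between the tumours could be set against the spread between animals. Intervals in parentheses are exact 95% intervals of counting error only.

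Interleukin-1 is a pair of cytokines, IL-1 alpha and IL-1 beta, that bind the receptor IL1R1. The bound receptor recruits the accessory protein IL1RAP and the adaptor MYD88 and turns on the transcription factor NF-kB, which drives chemokines, IL-6 and the prostaglandin enzyme PTGS2. IL1RN is a natural antagonist that occupies IL1R1, and IL1R2 is a decoy receptor that binds the ligand without signalling. In pancreatic cancer, fibroblasts that receive IL-1 are known to take an inflammatory state with high IL-6 and CXCL1, while those under TGF-beta become contractile myofibroblasts. AF12198 is a peptide that blocks ligand binding to IL1R1. It was described in earlier work as binding the human receptor and not the mouse one, and these libraries hold no measure of binding or of signalling protein.

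The kept cells held 91746734 UMIs in the control tumour and 91268402 in the AF12198-treated tumour, with medians of 2166 and 2616 UMIs and of 1071 and 1083 genes per cell. The median mitochondrial share was 5.63% and 3.94%. The 2 tumour libraries shared 102 barcodes, 0.477% of the control cells and 0.537% of the treated cells. The lowest barcode of the deposited control matrix had 760 UMIs and that of the treated matrix 500, which is why the limit of 760 was used for both. Levels are given as CPM, the UMIs of a gene scaled to an equal total of UMIs, of a library, or of a cell class within a library where that is said. Summed over a whole library, a CPM difference combines how many cells of a type there were with how much RNA each held, and fewer cells and less RNA per cell cannot be told apart from it.

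Across the 14269 genes with at least 1 CPM in either tumour, 1005 were at least 1.5-fold higher with AF12198, 7.04% of those measured, and 4976 were at least 1.5-fold lower, 34.9%. At 2-fold the counts were 436 (3.06%) and 1876 (13.1%). The median gene had a log2 ratio of -0.34, computed on CPM plus a pseudocount of 1, so a typical gene stood somewhat lower in the treated library. That share of lower genes depended on scaling: with the libraries scaled by the median of gene ratios instead of by total UMIs, 2174 genes were higher and 2220 lower, 49.5% and 50.5% of the calls against 16.8% and 83.2%. Directions below refer to CPM, and a log2 ratio is to be read against the median of -0.34. With both libraries set to the same mixture of cell classes, 1088 genes were higher, 3835 were lower and the median was -0.28.

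**Figure D1:**
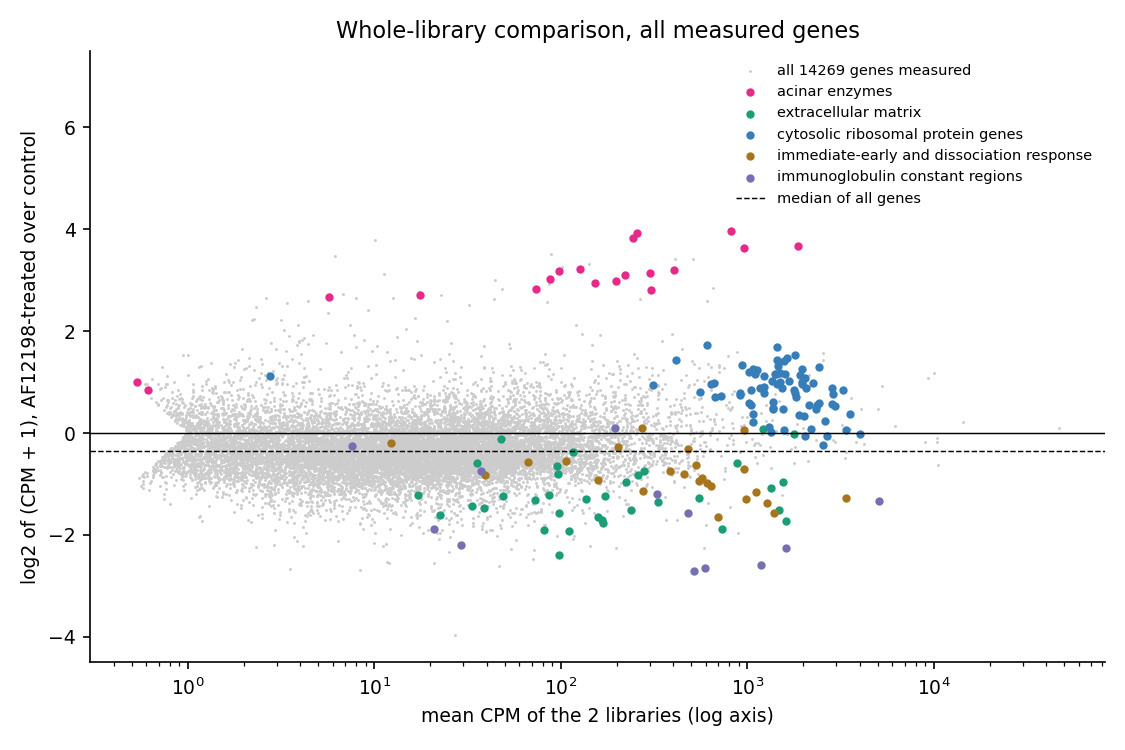
Each grey point is 1 of the 14269 measured genes, with the mean CPM of the 2 tumour libraries on a log axis and the log2 ratio of AF12198-treated over control, on CPM plus 1, on the vertical axis; coloured points are members of 5 gene groups and the dashed line is the median of all genes at -0.34. Most acinar enzyme genes lie above the other groups, most ribosomal protein genes lie above 0 at high CPM, and the matrix, immediate-early and immunoglobulin genes lie mostly below the dashed line.

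Cells of both tumours clustered together gave 30 clusters, of which 26 were named by marker genes in 12 classes. Neutrophil-like cells, which carried S100a8, S100a9 and G0s2, made up 28.8% (28.2 to 29.4) of the control cells and 37.2% (36.5 to 37.9) of the treated cells, a ratio of shares of 1.29 (1.25 to 1.34). Macrophage/monocyte-like cells, marked by Apoe, Lyz2 and C1qa, were 24.2% and 23.3%, a ratio of 0.964 (0.925 to 1.00). They held 23.8% of the control UMIs and 34.9% of the treated UMIs, and their median depth was 2985 UMIs in the control and 6181 in the treated tumour. T-like cells, with Trbc2, Cd3g and Il7r, were 12.3% in both libraries, a ratio of 0.998 that was 1.77 with at most 10% mitochondrial UMIs and 0.550 at a Leiden resolution of 2.0.

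Fibroblast-like cells, marked by Col1a1, Col1a2 and Col3a1, were 7.51% (7.17 to 7.88) of the control cells and 2.94% (2.70 to 3.19) of the treated cells, a ratio of 0.391 (0.354 to 0.431). Vessel endothelial-like cells, with Flt1, Pecam1 and Plvap, were at 2.98% and 2.07%, and epithelial-like cells, with Krt8, Krt18 and Krt19, at 7.22% and 6.14%. Among named cells that were neither immune nor erythroid, fibroblast-like cells were 42.4% of 3789 in the control and 26.4% of 2118 in the treated tumour, while epithelial-like cells were 40.8% and 55.1%. Erythroid-like cells were 2.28% and 0.390%, plasma-like cells 1.46% and 0.353%, B-like cells 3.58% and 2.60%, and mast or basophil-like cells 0.201% and 0.942%, the last from 43 and 179 cells. Dendritic-like cells, with Bst2, Ccr7 and Ccl17, were 4.55% and 4.79%, and NK or innate lymphoid-like cells, with Gzma, Klre1 and Txk, 1.93% and 2.25%. Digestion with collagenase for 90 minutes releases cell types unequally, and its part in these shares was not tested.

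**Figure D2:**
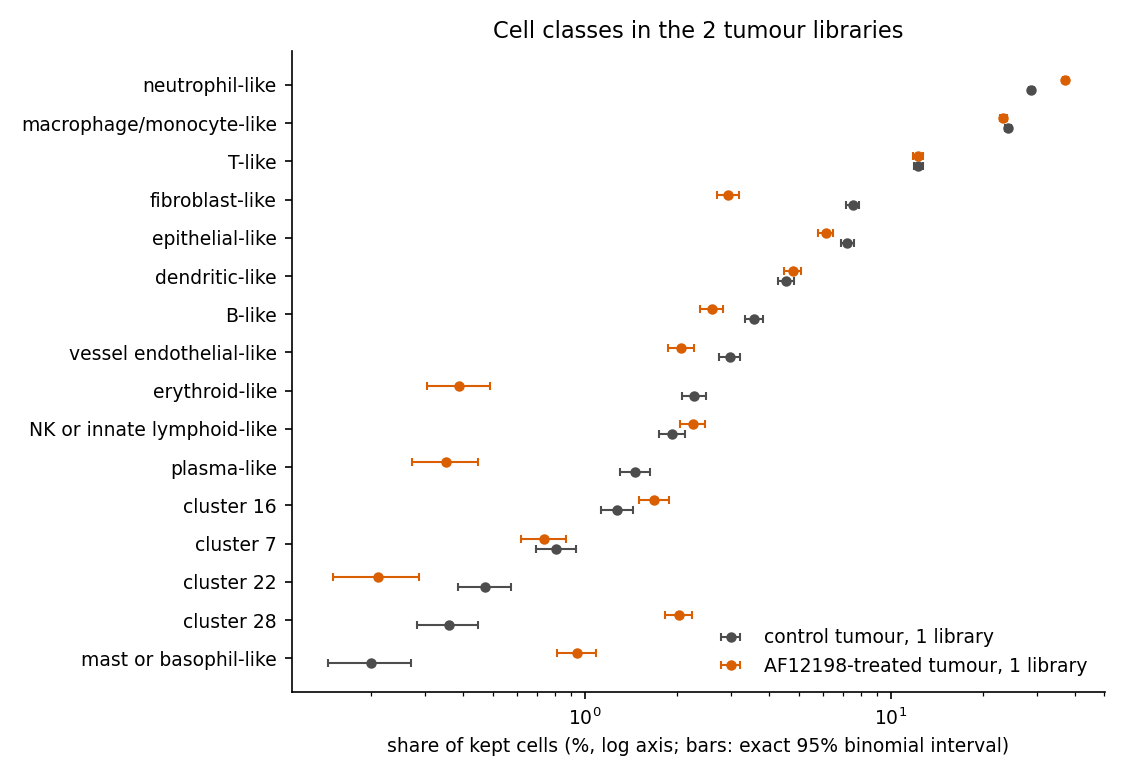
Shares of kept cells by class and unnamed cluster, in percent on a log axis, for the control and the AF12198-treated tumour; points are single libraries and bars are exact 95% binomial intervals. Fibroblast-like, erythroid-like and plasma-like cells are further left in the treated tumour, and neutrophil-like cells, mast or basophil-like cells and cluster 28 further right.

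Several clusters came almost wholly from 1 library, so they may be that library and not a cell type. Of the neutrophil-like cells, cluster 2, led by Il1r2, Hdc and Csf3r, held 5228 control and 112 treated cells. Clusters 29, led by Gpr84 and Tnf, and 21, led by Rdh12 and Cxcl3, held 167 and 294 control cells against 3955 and 2404 treated cells. Of the macrophage/monocyte-like cells, cluster 10, led by Nrg1 and Lsmem1, held 2234 control and 35 treated cells, and cluster 11, led by Ms4a4c, held 269 and 1400. Cluster 5, led by Arg1 and Mmp12, held 783 and 2080, and cluster 0, led by Fcna and Cbr2, 1704 and 697. The values within these 2 classes below therefore compare largely different clusters. The 4 unnamed clusters held 2.92% of control and 4.67% of treated cells.

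The IL-1 genes themselves did not move together. Il1a (chr2:129299610-129309972, minus strand), which encodes IL-1 alpha, stood at 118 CPM in the control tumour and 293 CPM with AF12198, a ratio of 2.49 (2.44 to 2.55). Neutrophil-like cells held 55.5% of its control UMIs, and within them the ratio was 2.43 (2.36 to 2.51). It was at least 1.5-fold higher in 9 of the 12 classes in which it could be evaluated and 1.5-fold lower in none. Counts of classes, here and below, may include classes that hold a gene's RNA from other cells, and that part was not tested. Of all genes evaluated in a class, the share at least 1.5-fold higher was 6.26% in B-like, 7.46% in NK or innate lymphoid-like, 6.05% in T-like, 9.84% in endothelial-like, 6.54% in dendritic-like, 7.2% in epithelial-like, 8.2% in erythroid-like, 7.56% in macrophage/monocyte-like, 24.8% in mast or basophil-like, 7.94% in fibroblast-like, 11.2% in plasma-like and 7.08% in neutrophil-like cells. The share at least 1.5-fold lower was larger in every class, at 37.5%, 32.7%, 38.7%, 24.5%, 38.1%, 27.6%, 41.6%, 27.1%, 28.7%, 25.8%, 40.4% and 34.3% in the same order. Il1b (chr2:129364570-129371139, minus strand), which encodes IL-1 beta, stood at 3039 CPM and 3395 CPM, a ratio of 1.12 (1.11 to 1.12), with 0.913 (0.907 to 0.920) within neutrophil-like cells and 1.07 (1.06 to 1.08) within macrophage/monocyte-like cells. The ratio of Il1b in the whole library was thus on the other side of 1 from that in its main source. In the normal and the ligated pancreas Il1a stood at 0 and 6.71 CPM and Il1b at 7.21 and 469 CPM, below both tumours.

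The natural antagonist was within 1.5-fold and the decoy receptor was lower. Il1rn, the antagonist, stood at 1179 CPM and 1034 CPM, a ratio of 0.877 (0.869 to 0.884) that was 1.11 when scaled by the median of gene ratios, and was at least 1.5-fold lower in 7 of 12 classes, among them macrophage/monocyte-like cells at 0.574 (0.566 to 0.582). Il1r2, the decoy receptor, stood at 643 CPM and 388 CPM, a ratio of 0.603 (0.595 to 0.611), and was lower by 1.5-fold in 12 of 12 classes. In neutrophil-like cells, which held 61.3% of its control UMIs, Il1r2 went from 3500 CPM to 2007 CPM. Il1r2 is a marker of those cells, and the part of their RNA in the values of the other classes was not tested.

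Il1r1, the receptor that AF12198 is meant to block, stood at 33.7 CPM in the control and 16.9 CPM in the treated library, a ratio of 0.502 (0.472 to 0.534). Fibroblast-like cells held 76.2% of its control UMIs, and within them it stood at 146 CPM and 153 CPM, a ratio of 1.05 (0.971 to 1.13). With both libraries set to the same class make-up its ratio was 0.9885. The cause of its library ratio was not tested. Neutrophil-like cells had 3.19 CPM and 1.34 CPM of it. Il1rap, the accessory protein, was at 33.1 CPM and 41.8 CPM, a ratio of 1.26 (1.205 to 1.33).

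Of the 24 ligands, receptors and adaptors of the IL-1 family that were measured, 4 were at least 1.5-fold higher and 5 lower, beside 7.04% and 34.9% of all genes. Their median log2 ratio was -0.18 and became 0.16 when scaled by the median of gene ratios. The higher ones were Il1a, Il18, Pycard, which encodes the inflammasome adaptor ASC, and Il1rl1, the IL-33 receptor. Pycard went from 46.4 to 119 CPM, a ratio of 2.55 (2.46 to 2.65), and was higher in 10 of 11 classes. The lower ones were Il1r1, Il1r2, Il1rl2, Tollip and Il33, an alarmin made by stromal cells. Il33 went from 67.6 to 30.8 CPM, a ratio of 0.456 (0.436 to 0.476), with 0.926 (0.875 to 0.981) within fibroblast-like cells. The adaptor Myd88 was at 55.8 and 44.3 CPM, a ratio of 0.795 (0.763 to 0.828).

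The chemokine genes Cxcl1, Cxcl2 and Cxcl3 lie in 1 cluster on mouse chromosome 5 and encode ligands of the neutrophil receptor CXCR2. Il6, on the same chromosome, encodes IL-6. All are known NF-kB targets, and their promoters are shown because the values of these genes moved apart between the tumours. The stretches below are the 150 bases before the RefSeq transcription start on the plus strand of GRCm38.p6, at chr5:90891095-90891244 for Cxcl1, chr5:90903749-90903898 for Cxcl2, chr5:90785951-90786100 for Cxcl3 and chr5:30012964-30013113 for Il6. Capitals mark matches, on either strand, to GGG, any 3 bases, then TTCC, a form of the NF-kB site.
Cxcl1: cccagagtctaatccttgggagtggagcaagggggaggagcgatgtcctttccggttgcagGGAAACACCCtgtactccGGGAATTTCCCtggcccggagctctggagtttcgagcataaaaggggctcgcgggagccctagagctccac
Cxcl2: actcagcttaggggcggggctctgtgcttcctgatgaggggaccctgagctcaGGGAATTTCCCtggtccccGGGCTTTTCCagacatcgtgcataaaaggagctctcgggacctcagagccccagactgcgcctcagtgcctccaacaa
Cxcl3: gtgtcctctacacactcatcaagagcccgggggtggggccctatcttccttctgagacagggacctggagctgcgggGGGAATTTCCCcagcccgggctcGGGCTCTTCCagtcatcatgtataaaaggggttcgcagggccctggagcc
Il6: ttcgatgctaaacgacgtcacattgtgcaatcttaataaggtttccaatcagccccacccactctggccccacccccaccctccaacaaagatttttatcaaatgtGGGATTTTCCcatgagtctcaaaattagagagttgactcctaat
Each chemokine promoter held 3 matches, of which 2, 1 on each strand, overlap in the same stretch GGGAATTTCCC, and Il6 held 1. Such a match was found in 1001 of 32851 RefSeq promoters of the same length (3.05%), and in 949 of 27025 gene symbols with a promoter in that table (3.51%). Of the 23 genes of the IL-1 and NF-kB target list that are in that table, 8 held one, among them 2 of the 4 called higher and 4 of the 10 called lower.

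Cxcl3 stood at 67.4 CPM in the control and 259 CPM in the treated tumour, a ratio of 3.84 (3.74 to 3.95). Within neutrophil-like cells, which held 43.2% of its control UMIs, it went from 258 to 1167 CPM, and it was at least 1.5-fold higher in 11 of 12 classes. Cxcl2 stood at 3629.8 CPM and 6908 CPM, a ratio of 1.90 (1.90 to 1.91), with 1.77 (1.76 to 1.78) within neutrophil-like cells. Cxcl2 was the chemokine with the largest gain in library share, 3278 CPM. Cxcl1 went the other way, from 251 to 158 CPM, a ratio of 0.629 (0.616 to 0.642). Fibroblast-like cells held 44.4% of its control UMIs, and within them its ratio was 1.51 (1.46 to 1.55), while it was lower by 1.5-fold in 8 of 11 classes. Cxcl5, an epithelial ligand of CXCR2, went from 44.0 to 83.2 CPM, a ratio of 1.89 (1.82 to 1.97), and its ratio within epithelial-like cells was 3.04 (2.91 to 3.17). The 4 CXCR2 ligands therefore differed in direction in the libraries, but within the class that held most of its UMIs each of them was above 1.

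Il6 stood at 104 CPM in the control and 34.6 CPM with AF12198, a ratio of 0.331 (0.318 to 0.345). Fibroblast-like cells held 71.0% of its control UMIs, with 422 and 259 CPM within them, a ratio of 0.614 (0.582 to 0.648), and Il6 was lower by 1.5-fold in all 8 classes in which it could be evaluated. Ptgs2, which encodes the inducible prostaglandin synthase, stood at 2091 CPM and 1041 CPM, a ratio of 0.498 (0.494 to 0.502), and was lower in 12 of 12 classes. Nfkb1, the p105 precursor of an NF-kB subunit, had a ratio of 0.569 (0.561 to 0.576), and Tnfaip3, which encodes the feedback inhibitor A20, a ratio of 0.586 (0.577 to 0.595). Each was lower in 12 of 12 classes. Birc3, an inhibitor of apoptosis, had a ratio of 0.547 (0.532 to 0.563), and Vcam1, an adhesion molecule for leukocytes, went from 288 to 121 CPM with a ratio of 0.419 (0.410 to 0.429).

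Of the 31 measured IL-1 and NF-kB targets, 5 were higher and 13 lower, beside 7.04% and 34.9% of all genes, with a median of -0.36 close to that of all genes. The higher ones were Cxcl2, Cxcl3, Cxcl5, Sod2, the mitochondrial superoxide dismutase, and Lcn2, an iron-siderophore binding protein. Lcn2 went from 87.9 to 139 CPM, a ratio of 1.58 (1.54 to 1.63). Within fibroblast-like cells 7 of 29 were higher and 11 lower, against 7.94% and 25.8% of all genes evaluated there. Within macrophage/monocyte-like cells the counts were 3 and 12 of 25, against 7.56% and 27.1%, and within neutrophil-like cells 4 and 11 of 27, against 7.08% and 34.3%. Saa3, an acute-phase serum amyloid, went from 297 to 163 CPM in the library but had a ratio of 1.11 (1.09 to 1.14) within fibroblast-like cells, its main source.

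**Figure D3:**
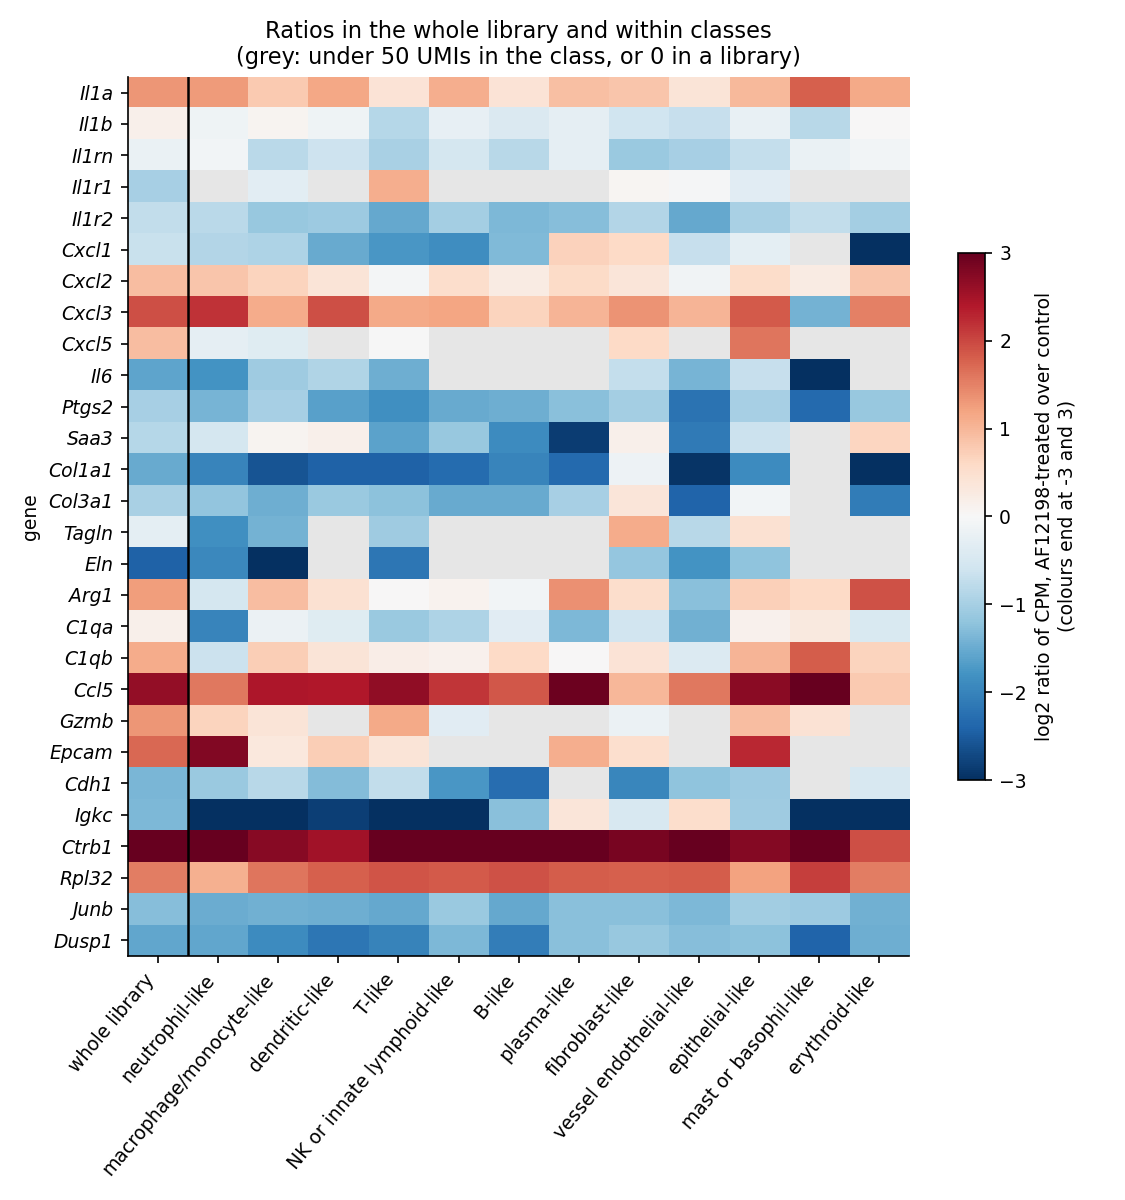
Rows are 28 genes and columns are the whole library and 12 cell classes; colour gives the log2 ratio of CPM, AF12198-treated over control, red for higher and blue for lower with colours ending at -3 and 3, and grey marks under 50 UMIs or 0 in a library. Il1r2, Ptgs2, Junb and Dusp1 are blue in every class evaluated, Ccl5, Ctrb1 and Rpl32 are red in every class evaluated, and Col3a1, Cxcl1 and Saa3 are blue in the library but red within fibroblast-like cells.

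Genes of neutrophil attraction were mostly higher in the treated library. Of 17 measured neutrophil-attracting chemokines, growth factors and receptors, 10 were higher and 2 lower, beside 7.04% and 34.9% of all genes. Their median log2 ratio was 0.83, and 0.69 at equal class make-up. Within neutrophil-like cells 5 of 14 were higher and 2 lower, against 7.08% and 34.3% of all genes there. The counts were 4 and 3 of 13 within macrophage/monocyte-like cells, against 7.56% and 27.1%. They were 3 and 4 of 14 within fibroblast-like cells, against 7.94% and 25.8%. S100a8 and S100a9, the subunits of calprotectin, went from 1343 to 2953 CPM and from 1487 to 2835 CPM, ratios of 2.20 (2.18 to 2.21) and 1.91 (1.89 to 1.92). Within neutrophil-like cells these ratios were 2.10 (2.09 to 2.12) and 1.82 (1.80 to 1.83). Cxcr2 went from 55.2 to 99.2 CPM, a ratio of 1.80 (1.74 to 1.86). The lower members in the library were Cxcl1 and Csf2, the gene of GM-CSF, at 8.55 and 3.37 CPM. Csf3, which encodes the neutrophil growth factor G-CSF, was at 4.47 and 3.54 CPM, a ratio of 0.792 (0.682 to 0.918).

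Granule genes of neutrophils went in both directions. Ngp, which encodes a neutrophilic granule protein, went from 121 to 21.0 CPM, a ratio of 0.174 (0.165 to 0.182), and Camp, which encodes the cathelicidin, from 73.7 to 17.5 CPM, a ratio of 0.238 (0.225 to 0.251). Within neutrophil-like cells, Ngp had a ratio of 0.161 (0.153 to 0.169). The cluster led by Ngp and Camp was nonetheless larger in the treated library, with 260 control and 409 treated cells. Mmp9, a gelatinase, went from 229 to 437 CPM, a ratio of 1.91 (1.88 to 1.94). Of 18 measured maturation and granule genes 6 were higher and 6 lower, beside 7.04% and 34.9% of all genes, with a median of -0.02.

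Among 20 genes of aged and tumour neutrophils, 4 were higher and 2 lower, beside 7.04% and 34.9% of all genes. The others were within 1.5-fold, and the median of the list was 0.29. Tnf, the cytokine, went from 174 to 328 CPM, a ratio of 1.89 (1.85 to 1.92), with 1.97 (1.92 to 2.03) within neutrophil-like cells. Cstb, a cathepsin inhibitor, had a ratio of 1.92 (1.89 to 1.94), and Clec5a, a myeloid lectin receptor, one of 1.88 (1.81 to 1.94). Vegfa, the vessel growth factor, was at 353 and 273 CPM, and Siglecf at 24.5 and 30.8 CPM, both within 1.5-fold.

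Matrix genes were lower in the treated library. Of 35 measured extracellular matrix genes, 31 were at least 1.5-fold lower and 0 higher, beside 34.9% and 7.04% of all genes. Their median log2 ratio was -1.26. Col1a1 and Col1a2, the chains of type I collagen, went from 2199.8 to 770.4 CPM and from 2465 to 747 CPM, ratios of 0.350 (0.347 to 0.353) and 0.303 (0.301 to 0.306). Dcn, which encodes the proteoglycan decorin, went from 1149 to 313 CPM, a ratio of 0.272 (0.269 to 0.276), and Eln, elastin, from 164 to 30.6 CPM, a ratio of 0.186 (0.179 to 0.194). With both libraries at the same class make-up the list's median was -0.21, above the -0.28 of all genes.

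Within fibroblast-like cells the matrix genes were close to level. There 2 of 35 were higher and 4 lower, against 7.94% and 25.8% of all genes there, with a median of -0.25 beside -0.28 for all of them. Col1a1 stood at 12057 and 10764 CPM of the class, a ratio of 0.893 (0.885 to 0.901), and Col3a1, type III collagen, had a ratio of 1.29 (1.28 to 1.30). Eln, 1 of the 4 lower genes, had a ratio of 0.449 (0.430 to 0.469). Outside fibroblast-like cells, in classes not known to make collagen, Col1a1 was lower too, at 161 and 41.1 CPM in neutrophil-like cells and at 109.8 and 20.4 CPM in T-like cells. Fibroblast-like cells held 96.3% of its control UMIs, and the part of RNA from other cells in them was not tested.

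The contractile and the inflammatory gene sets of fibroblasts were both lower in the library and differed in their counts within fibroblast-like cells. In the library, 12 of 21 myofibroblast genes and 17 of 22 inflammatory fibroblast genes were lower, beside 34.9% of all genes. Their medians were -0.81 and -0.91. Within fibroblast-like cells, 6 of 21 myofibroblast genes were higher and 2 lower, and 5 of 23 inflammatory genes were higher and 6 lower, against 7.94% and 25.8% of all genes there. The medians there were -0.03 and -0.05. At equal class make-up 6 myofibroblast genes were higher and 0 lower, with a median of -0.08, and 3 inflammatory genes were higher and 7 lower, with a median of -0.29. The difference between the sets was not tested. Tagln and Acta2, of the contractile apparatus, had ratios of 2.15 (2.08 to 2.22) and 1.77 (1.71 to 1.84) within these cells although they were at 0.816 and 0.733 in the library. Mfap5, a microfibril protein, and Cxcl14, a chemokine, had ratios of 1.95 (1.90 to 2.01) and 2.50 (2.42 to 2.59) there. Dpt, dermatopontin, and Cxcl12, the ligand of CXCR4, were lower, with 0.528 (0.511 to 0.546) and 0.653 (0.621 to 0.686). Cxcl13, which attracts B cells, went from 20.7 to 2.74 CPM, a ratio of 0.132 (0.115 to 0.151), and had 0.215 (0.182 to 0.254) within fibroblast-like cells.

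Mesothelial, complement and TGF-beta response genes were mostly lower as well, beside 34.9% of all genes lower. Of 8 measured mesothelial markers 7 were lower, with Wt1, a transcription factor of the mesothelium, at 42.9 and 7.69 CPM and Upk3b at 7.41 and 1.17 CPM. These 2 had ratios of 0.461 (0.423 to 0.502) and 0.409 (0.329 to 0.503) within fibroblast-like cells. Of 16 complement genes 9 were lower, led by C1s1, a classical pathway protease, at 188 and 43.9 CPM. Of 17 TGF-beta response genes 9 were lower and 0 higher, with a median of -0.72. At equal class make-up 5 mesothelial markers were lower and 0 higher, with a median of -0.66. Of the complement genes 2 were then higher and 2 lower, and of the TGF-beta response genes 0 and 3. Their medians at that make-up were -0.20 and -0.23, beside -0.28 for all genes. Ccn1, a matricellular protein, had a ratio of 0.296 (0.288 to 0.304). Mmp14, a membrane collagenase, went from 243 to 112 CPM. Mmp14 was lower in 11 of 11 classes.

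The study names NFAT in its title, so its genes were counted as well. NFAT factors are held in the cytoplasm until calcineurin, a calcium-activated phosphatase, releases them to the nucleus. Of 21 calcineurin and NFAT genes 10 were lower and 0 higher, beside 34.9% of all genes lower, with a median of -0.54. Scaled by the median of gene ratios, 4 were lower, with a median of -0.22 beside -0.03 for all genes. At equal class make-up 8 were lower, with a median of -0.50 beside -0.28. The median transcript length was 2724 bases in this list and 2166 over all genes, and the part of length was not tested. Ppp3ca, Ppp3cb and Ppp3r1, which encode calcineurin subunits, had ratios of 0.555 (0.542 to 0.568), 0.539 (0.518 to 0.561) and 0.511 (0.493 to 0.529), and were lower in 10 of 12, 11 of 11 and 11 of 11 classes. Nfatc4 had a ratio of 0.338 (0.294 to 0.387) in the library and 0.821 (0.708 to 0.948) within fibroblast-like cells. Rcan1, a transcript that NFAT itself induces, stood at 70.2 and 72.1 CPM, a ratio of 1.03 (0.992 to 1.06).

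Macrophage genes went in both directions. Lyz2, lysozyme, went from 1284 to 3809 CPM, a ratio of 2.97 (2.95 to 2.99), and Arg1, arginase 1, from 209 to 497 CPM, a ratio of 2.37 (2.33 to 2.41). Within macrophage/monocyte-like cells the ratios were 2.31 (2.29 to 2.33) and 1.91 (1.87 to 1.94). Trem2, a lipid receptor, went from 39.2 to 82.5 CPM and Folr2, a folate receptor, from 5.97 to 14.5 CPM. Mrc1, the mannose receptor, and Ccr2, the monocyte chemokine receptor, had ratios of 0.603 (0.590 to 0.616) and 0.605 (0.589 to 0.621) within the class.

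The chains of C1q, which assemble in equal numbers, gave unequal ratios. C1qb went from 389.9 to 839 CPM, a ratio of 2.15 (2.12 to 2.18), whereas C1qa and C1qc had ratios of 1.11 (1.10 to 1.12) and 1.17 (1.16 to 1.19). Within macrophage/monocyte-like cells C1qb had 1.68 (1.66 to 1.70), C1qa 0.883 (0.874 to 0.892) and C1qc 0.927 (0.914 to 0.940). Of 22 tumour macrophage genes 7 were higher and 3 lower, beside 7.04% and 34.9% of all genes. Their median was 0.10 and turned to -0.21 at equal class make-up. With each barcode weighted equally it was -0.48, with 4 of these genes higher and 8 lower. Of 9 MHC class II genes 2 were higher and none lower, beside 7.04% and 34.9% of all genes. Their median was 0.30 and turned to -0.06 at equal class make-up. Within macrophage/monocyte-like cells 0 of 9 were higher and 1 lower, against 7.56% and 27.1% of all genes there.

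Of the 12 genes of arginine, nitric oxide and itaconate metabolism 5 were higher and 3 lower, beside 7.04% and 34.9% of all genes. Nos2, the inducible nitric oxide synthase, went from 5.53 to 11.9 CPM, Ass1, which recycles citrulline to arginine, from 33.4 to 64.1 CPM and Acod1, which makes itaconate, from 323 to 511 CPM. The ratio of Nos2 was 2.155, and 1.17 with each barcode weighted equally, where Ass1 and Acod1 had 1.604 and 1.888. The arginine carrier Slc7a2 went from 71.2 to 41.6 CPM, a ratio of 0.583 (0.560 to 0.607). The monocyte chemokines Ccl2 and Ccl7 had ratios of 0.769 (0.755 to 0.783) and 0.550 (0.537 to 0.563), while Ccl6 and Ccl8 had 2.47 (2.44 to 2.50) and 1.82 (1.78 to 1.86).

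Ccl5, a chemokine for T cells and monocytes, was the chemokine with the largest ratio. It stood at 73.6 CPM in the control and 461 CPM in the treated tumour, a ratio of 6.26 (6.10 to 6.43), and was at least 1.5-fold higher in 12 of 12 classes. In T-like cells it went from 364 to 2303 CPM and in NK or innate lymphoid-like cells from 922 to 4084 CPM. In plasma-like cells, which are not a usual source of it, it stood at 11.5 and 88.0 CPM. Ccl17, made by dendritic cells, went from 23.6 to 81.8 CPM, a ratio of 3.47 (3.30 to 3.64), with 3.20 (3.02 to 3.39) within dendritic-like cells.

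Genes of cytotoxic lymphocytes were mostly higher. Of 15 measured cytotoxic effector genes 9 were higher and 0 lower, beside 7.04% and 34.9% of all genes. Their median was 0.76, and 0.56 at equal class make-up. Gzmb, granzyme B, went from 24.4 to 60.7 CPM, a ratio of 2.48 (2.36 to 2.61), and Gzmc from 6.59 to 19.4 CPM. Nkg7, a granule membrane protein, went from 57.3 to 119.7 CPM, a ratio of 2.09 (2.02 to 2.16), with 1.96 (1.88 to 2.04) within T-like cells. Ifng, interferon gamma, was at 14.0 and 24.5 CPM, a ratio of 1.75 (1.63 to 1.87). Prf1, perforin, and Fasl, the ligand of the death receptor Fas, were at 0.705 and 0.785 of the control level. Within T-like cells 9 of 15 were higher, against 6.05% of all genes there. Within NK or innate lymphoid-like cells 2 of 10 were higher and 2 lower, against 7.46% and 32.7%. Gzmb and Gzmc are members of a family of close relatives, and reads shared between them could be split differently.

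The 2 clusters of T-like cells took different parts in each library. Cluster 9, led by Gm156, Ifng and Cd8a, held 1802 control and 1264 treated cells, and cluster 17, led by Nsg2, Lef1 and Tcf7, held 836 and 1073. Of 20 checkpoint receptors and ligands 0 were higher and 3 lower, beside 7.04% and 34.9% of all genes. Within T-like cells 0 were higher and 6 of 19 lower, against 6.05% and 38.7% of all genes there. Ctla4 and Pdcd1, which encode inhibitory receptors, had library ratios of 0.740 and 0.831, both within 1.5-fold. Within T-like cells these ratios were 0.567 (0.530 to 0.606) and 0.766 (0.725 to 0.808). An unnamed cluster led by Foxp3, Klrg1 and Il2ra, genes of regulatory T cells, held 274 control and 321 treated cells. Its cells are not in the T-like class or in the values given for that class. Il10 went from 22.5 to 11.5 CPM, a ratio of 0.511 (0.474 to 0.551), and Areg, which encodes amphiregulin, from 48.7 to 98.5 CPM.

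Genes induced by interferon were called about as often as all genes. Of 28 measured, 2 were higher and 8 lower, beside 7.04% and 34.9% of all genes, with a median of -0.31 that became 0.03 when scaled by the median of gene ratios. Ifitm3 and Ifi27l2a, both short transcripts, went from 369 to 907 CPM and from 167 to 409.6 CPM. Rsad2 and Ifit2, antiviral effectors, had ratios of 0.563 (0.542 to 0.585) and 0.550 (0.507 to 0.597), and the transcription factor Stat2 one of 0.577 (0.549 to 0.606).

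Epithelial genes split within the epithelial-like class. Epcam, an adhesion molecule of epithelia, went from 25.05 to 82.1 CPM in the libraries, a ratio of 3.28 (3.13 to 3.43), and within epithelial-like cells from 92.7 to 448 CPM. Cdh1, E-cadherin, went from 159 to 62.0 CPM, a ratio of 0.389 (0.377 to 0.401), and within the class from 665 to 311 CPM. Cldn3 and Cldn7, claudins of tight junctions, had ratios of 4.57 (4.06 to 5.16) and 3.31 (2.99 to 3.66) there, while Dsp, desmoplakin, had 0.605 (0.556 to 0.658). Of 17 junction and keratin genes 8 were higher and 2 lower within epithelial-like cells, against 7.2% and 27.6% of all genes there. The keratins Krt8, Krt18 and Krt19 had ratios of 0.845 (0.833 to 0.857), 1.22 (1.1996 to 1.24) and 1.28 (1.25 to 1.31) in the class.

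Genes of gastric-type metaplasia, a state of the injured pancreas, also split. Tff1, a trefoil peptide, and Agr2, an endoplasmic reticulum protein of mucous cells, had ratios of 2.04 (1.94 to 2.14) and 7.81 (6.42 to 9.58) within epithelial-like cells. Tff2, another trefoil peptide, had 0.383 (0.363 to 0.405), Cldn18, a gastric claudin, 0.326 (0.313 to 0.339), and Vsig1, a gastric adhesion protein, 0.396 (0.366 to 0.427). The library ratio of Tff2 was 1.21, on the other side of 1. It ranged from 0.365 without the cluster led by acinar genes to 2.36 with each barcode weighted equally. In the library Cldn18 went from 153 to 37.3 CPM, and it was lower in 8 of 8 classes. Of 19 measured genes 9 were higher and 7 lower, beside 7.04% and 34.9% of all genes. Their median was 0.34 and turned to -0.36 without the cluster led by acinar genes and to -0.04 at equal class make-up. Within epithelial-like cells 9 of 19 were higher and 6 lower, against 7.2% and 27.6% of all genes there. Of 23 cell cycle genes 0 were higher and 4 lower, beside 34.9% of all genes lower, among them Ccna2 and Rrm2 with ratios of 0.479 (0.446 to 0.515) and 0.479 (0.450 to 0.510), and within epithelial-like cells 7 of 23 were lower, against 27.6%.

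Among genes with at least 10 CPM in either tumour, the 12 largest ratios were those of digestive enzymes of pancreatic acinar cells. All 19 measured acinar enzyme genes were higher, beside 7.04% of all genes, with a median log2 ratio of 3.10. Ctrb1, chymotrypsinogen B1, went from 272 to 3471 CPM, a ratio of 12.8 (12.6 to 12.9). It stood at 342 CPM in the normal and 943 CPM in the ligated pancreas. The trypsinogen Prss2 went from 142 to 1775 CPM and the elastase Cela3b from 30.6 to 482 CPM. The trypsinogens 1810009J06Rik and Gm2663 had the highest ratios, 69.4 (42.6 to 122) and 40.1 (29.9 to 55.2), from 16 and 45 control UMIs. Try4, Try5, Try10, Prss2, Prss3, Gm2663 and 1810009J06Rik are near-identical copies of 1 gene family, so their separate values are uncertain.

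Most of these UMIs sat in cluster 28, an unnamed cluster with acinar and epithelial markers that held 77 control and 386 treated cells. Because the genes that define it differ between the libraries, its size is given as a description. It held 92.4% of the Ctrb1 UMIs of the control and 94.5% of those of the treated tumour. Within it Ctrb1 went from 52622 to 111508 CPM, a ratio of 2.12 (2.09 to 2.15), and Reg1, a regenerating protein of the injured pancreas, from 30104 to 36256 CPM, a ratio of 1.204 (1.18 to 1.23). Other classes carried the same genes at low levels. In neutrophil-like cells, which do not make them, Ctrb1 stood at 37.2 CPM in the control and 456 CPM with AF12198. There 16 of 16 acinar enzymes were higher, against 7.08% of all genes. With cluster 28 left out, the median over acinar enzymes was 2.07, and at equal class make-up 0.81; the part of RNA from other cells was not tested.

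Genes of pancreatic endocrine cells were higher too. Of 9 measured, 8 were higher and 0 lower, beside 7.04% and 34.9% of all genes. Within epithelial-like cells 9 of 9 were higher, against 7.2% of all genes there, and within neutrophil-like cells 3 of 3, against 7.08%. Within T-like cells 1 of 5 was higher and 4 were lower, against 6.05% and 38.7% of all genes there. Ins2 and Ins1, the insulin genes, went from 192 to 327 CPM and from 139.8 to 166 CPM, ratios of 1.70 (1.67 to 1.74) and 1.19 (1.16 to 1.22). T-like cells held 25.6% of the control UMIs of Ins2 and 0.272% of the treated ones. Ppy, pancreatic polypeptide, had 0 control UMIs and 481 treated UMIs, at least 161-fold higher when the control is set at the floor of 3 UMIs, and Sst, somatostatin, had 1 and 421. The amount of adjacent pancreas in a dissected tumour was not given in the sources used here.

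Most immunoglobulin constant genes were lower and most mast or basophil markers higher in the treated library. Of 12 immunoglobulin constant genes 10 were lower and 0 higher, beside 34.9% and 7.04% of all genes. Igkc, the kappa constant region, went from 7311 to 2893 CPM, a ratio of 0.396 (0.394 to 0.398), and within plasma-like cells from 207837 to 268608 CPM, a ratio of 1.29 (1.29 to 1.30). Igha, the IgA heavy chain, went from 2669.8 to 559.6 CPM and Ighg1, an IgG heavy chain, from 2023 to 336 CPM. At equal class make-up Ighg1 was at 0.4445, Igha at 0.614 and Igkc at 1.10 of the control level, and over the list 2 genes were higher and 6 lower, with a median of -0.42. Within plasma-like cells 2 of 11 were higher and 4 lower, against 11.2% and 40.4% of all genes there. The heavy chains are alike in sequence, so their separate values are uncertain. In macrophage/monocyte-like cells, which do not make antibody, Igkc stood at 868 and 83.5 CPM.

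Hbb-bs, a beta-globin gene, went from 2139.7 to 926 CPM, a ratio of 0.433 (0.429 to 0.436), with 1.72 (1.71 to 1.74) within erythroid-like cells. Of 11 mast or basophil markers 9 were higher and 0 lower, beside 7.04% and 34.9% of all genes. Among the higher ones were Cma1, a chymase, at 5.32 and 40.0 CPM, Cpa3, a mast cell carboxypeptidase, at 5.09 and 28.1 CPM and Mcpt2 at 44.6 and 196 CPM. Within mast or basophil-like cells Cpa3 had a ratio of 1.34 (1.198 to 1.496) and Tpsb2, a tryptase, 0.866 (0.802 to 0.936).

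**Figure D4:**
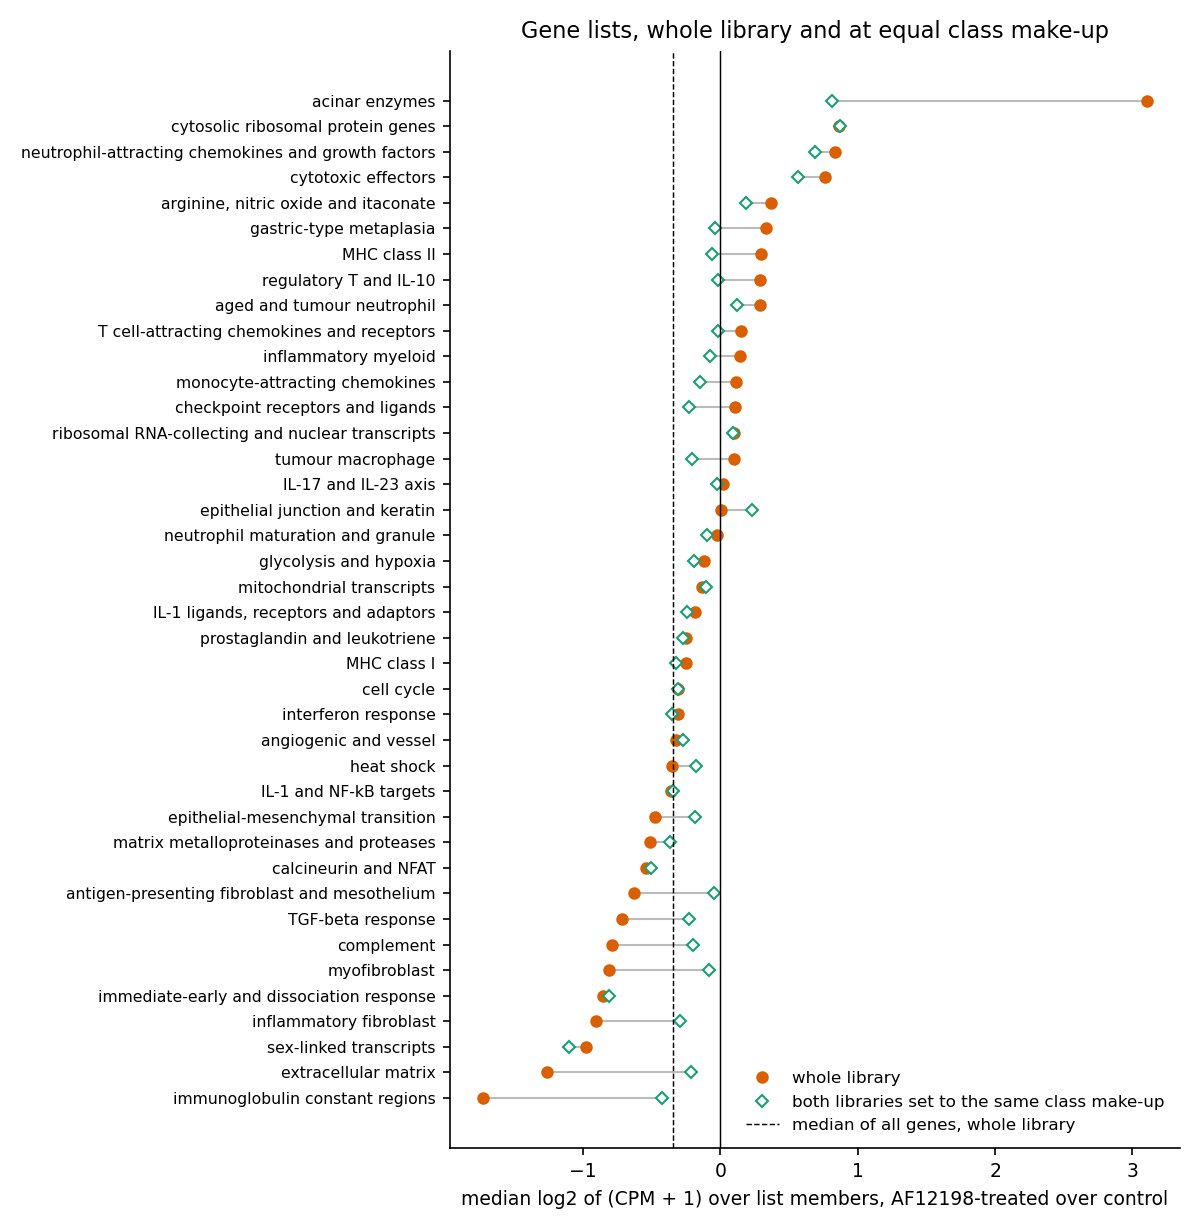
Median log2 ratio over the members of each gene list, AF12198-treated over control on CPM plus 1, in the whole library (filled circles) and with both libraries set to the same class make-up (open diamonds); the dashed line is the median of all genes at -0.34. Acinar enzymes, ribosomal protein genes, neutrophil attractants and cytotoxic effectors are to the right of 0 on both measures, and the immediate-early genes are at -0.85 and -0.81 while the extracellular matrix genes are at -1.26 and -0.21.

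Some differences were shared by nearly all classes. Of 6631 genes evaluated in at least 8 classes, 127 were at least 1.5-fold higher in every one and 292 lower in every one. Of the 78 measured cytosolic ribosomal protein genes, chosen by their symbols, 53 were higher and none lower, beside 7.04% and 34.9% of all genes. Their median was 0.87 both in the library and at equal class make-up. Rpl32 went from 926 to 2688 CPM, a ratio of 2.90 (2.88 to 2.93), and Rps18 from 681 to 2205 CPM, a ratio of 3.24 (3.21 to 3.27), whereas Rpsa was at 2764 and 2344 CPM. Such unequal ratios were found within 1 complex whose parts are made in equal numbers.

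Tmsb4x and Fth1 had the 2 largest increases in CPM, and the 10 largest also held Gm42418 and Malat1. Tmsb4x, an actin-binding peptide, went from 6126 to 13802 CPM, a ratio of 2.25 (2.25 to 2.26). Fth1 and Ftl1, the ferritin chains, went from 5993 to 12647 CPM and from 1378 to 3718 CPM. Gapdh, a glycolytic enzyme often used as a reference gene, went from 399 to 1006 CPM, a ratio of 2.52 (2.49 to 2.55), higher in 12 of 12 classes, while the other glycolytic genes Pkm and Ldha had ratios of 1.17 (1.16 to 1.19) and 1.10 (1.09 to 1.12). Of the 21 glycolysis and hypoxia genes 2 were higher and 3 lower, beside 7.04% and 34.9% of all genes.

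Immediate-early genes, which respond within minutes to growth factors and also to tissue dissociation, had medians below those of all genes in the library and in every class. Of 24 measured 18 were lower and none higher, beside 34.9% and 7.04% of all genes. Their median was -0.85, and -0.52 when scaled by the median of gene ratios. Junb, a subunit of the AP-1 transcription factor, went from 4778 to 1979 CPM, a ratio of 0.414 (0.412 to 0.417). Dusp1, a phosphatase of stress kinases, went from 2074 to 699 CPM, Zfp36, which destabilises cytokine transcripts, from 1853 to 712 CPM, and the nuclear receptor Nr4a1 from 1054 to 335 CPM. Each of these 4 was lower in 12 of 12 classes. Within both neutrophil-like and macrophage/monocyte-like cells 18 of 24 were lower, against 34.3% and 27.1% of all genes. The heat shock genes Hspa1a and Hspa1b, a pair of near-identical copies, had ratios of 0.386 (0.381 to 0.392) and 0.257 (0.254 to 0.260), while Hspa8 was at 0.992. Several of the NF-kB genes above, among them Tnfaip3, Nfkb1 and Ptgs2, were lower across classes in the same way.

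The ratio of a gene went with the length of its transcripts. Across 13300 genes with annotated protein-coding transcripts, Spearman's correlation between length and the log2 ratio was -0.321, given as a description since genes of 2 libraries are not independent replicates. Genes with transcripts under 600 bases had a median log2 ratio of 0.06, and 29.2% of those 511 genes were higher. Genes over 6000 bases had a median of -0.55, and 1.33% of those 749 genes were higher and 51.3% lower. The correlation was present within classes, at -0.216 in neutrophil-like cells, -0.317 in macrophage/monocyte-like cells, -0.341 in fibroblast-like cells and -0.263 in T-like cells. Short transcripts include Rpl32, Ccl5, S100a8 and Pycard, and their ratios are to be read beside it; the part of library preparation or RNA quality in this relation was not tested.

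**Figure D5:**
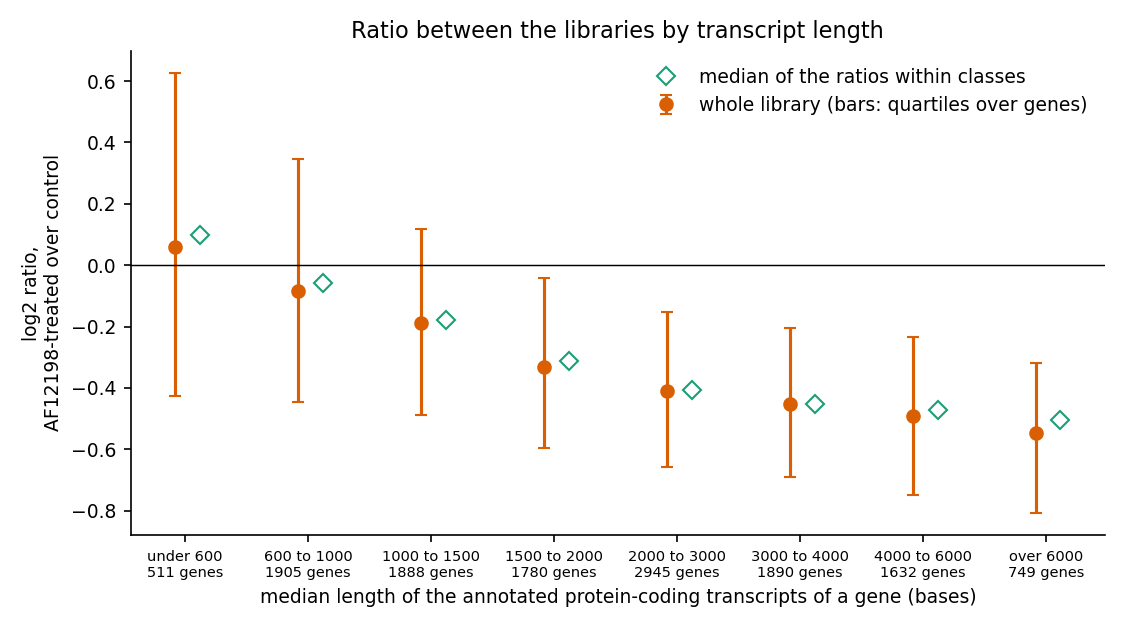
Log2 ratio, AF12198-treated over control on CPM plus 1, in 8 bins of the median length of a gene's protein-coding transcripts; filled circles are whole-library medians with quartiles over genes as bars, and open diamonds are medians of the ratios within classes. The medians go from 0.06 in the shortest bin to -0.55 in the longest.

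Most mitochondrial transcripts were within 1.5-fold, beside median mitochondrial shares of 5.63% and 3.94%. mt-Co1 lost the most CPM of any gene, from 12795 to 8329, a ratio of 0.651 (0.649 to 0.653), while mt-Co3 had a ratio of 0.891 (0.889 to 0.894) and mt-Atp8 one of 1.16 (1.13 to 1.18). Of 13 mitochondrial genes 1 was lower by 1.5-fold. Gm42418, a locus that collects ribosomal RNA reads, stood at 45087 and 48316 CPM, and AY036118, another such locus, at 155 and 539.8 CPM, a ratio of 3.49 (3.42 to 3.56) that was higher in 12 of 12 classes. Malat1, a nuclear RNA, had a ratio of 1.16 (1.16 to 1.16), Neat1, also nuclear, one of 0.623 (0.618 to 0.628), and Meg3, an imprinted RNA of fibroblasts here, one of 0.207 (0.202 to 0.213).

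Further genes with the smallest ratios were Gm42031 at 51.7 and 2.40 CPM, Gm49980 at 80.4 and 12.4 CPM, Gsta1, a glutathione transferase, at 21.1 and 2.76 CPM, Adamts15, a matrix protease, at 36.4 and 5.38 CPM and Col6a5, a collagen VI chain, at 19.0 and 3.30 CPM. Gm42031 was lower in every class in which it could be evaluated.

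Sex-linked transcripts were of the same kind in both tumours. The Y-linked genes Ddx3y, Kdm5d, Eif2s3y and Uty were all present, at 293, 18.9, 46.1 and 52.4 CPM in the control and 144, 8.68, 42.6 and 27.0 CPM in the treated tumour. Xist, the RNA of the inactive X chromosome, was under 1 CPM in both. Of these 4 genes 3 were lower by 1.5-fold, and Eif2s3y had a ratio of 0.926 (0.886 to 0.967).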

How the data were processed

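Single-cell RNA of 4 mouse pancreas libraries (10x 3' chemistry, v3) was deposited by the authors as counts of UMIs per gene and barcode; Cell Ranger 6.0.0 and the mm10 build are named in the submitters' processing notes, and no further step is given in the sources used here. Barcodes with at least 760 UMIs, 250 genes and at most 20% mitochondrial UMIs were kept. The deposited counts were summed per library and scaled to CPM (a common total per library), and the ratio of the AF12198-treated to the control tumour was taken with an exact conditional 95% interval (Clopper-Pearson); UMIs of 1 cell are not independent, so intervals and floors (3 counts) cover counting error only. With 1 library per group no test was made. A gene was measured at 1 CPM or more in either tumour and called at 1.5-fold; log2 ratios used a pseudocount of 1 CPM. The calls and intervals were first run on simulated counts that held counting error only. That run could not test the spread between cells, animals or libraries.

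Both tumours were clustered together with Scanpy 1.11.5 (2000 variable genes, 40 components, 20 neighbours, Leiden resolution 1.0). A class needed 3 markers raised at least 2-fold and seen in 10% of its cells, a naming threshold set after the data were seen; 4 of 30 clusters stayed unnamed, and class values depend on these rebuilt names. Within a class, genes needed 50 UMIs over both libraries to be evaluated. Scrublet's own threshold marked 2163 control cells and 1 treated cell, so no doublets were removed and the top 5% of scores was left out as an alternative. Transcript lengths and positions are from GENCODE vM21 (GRCm38) and promoters from RefSeq (GRCm38.p6).

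Named genes were the IL-1 genes, the 12 largest and 12 smallest ratios among genes with at least 10 CPM in 1 library (immunoglobulin and T cell receptor variable segments left out), the 10 largest gains and losses in CPM, the extremes of each list, sex-linked genes and the leading markers of each class; a few genes that this rule names are not reported here. Other genes are members of the lists, or share a family or pathway with one, and were picked after their values were seen. The comparison, its lists and its tests were chosen with earlier results of these data known. Python 3.11.15, NumPy 2.4.6, SciPy 1.17.1 and pandas 2.3.3 were used.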

Additional observations from a re-analysis of the deposited data

How the results depend on the processing

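No paired analysis was possible because each condition was 1 library, and for the same reason no replicate could be left out. The counts of genes higher and lower, 1005 and 4976, became 2174 and 2220 when scaled by the median of gene ratios, 3781 and 9541 with no filter beyond 1 UMI, and 669 genes were higher when 5 CPM was required; the larger and smaller numbers under the last 2 settings go with the genes tested, 24873 and 11050. Under the other settings both counts stayed within 1.5 times. The ratio of the share of T-like cells was 0.916 with a minimum of 500 UMIs, 1.77 with at most 10% mitochondrial UMIs and 0.550 at a Leiden resolution of 2.0, beside 0.998; in these settings some T cell clusters were left unnamed. With at most 10% mitochondrial UMIs the ratio was 0.953 for epithelial-like, 0.340 for fibroblast-like, 1.02 for macrophage/monocyte-like and 1.15 for neutrophil-like cells, and with a minimum of 500 UMIs it was 0.897 for macrophage/monocyte-like cells. Among named cells neither immune nor erythroid the ratio was 1.35 for epithelial-like, 1.10 for endothelial-like and 0.621 for fibroblast-like cells, the first 2 on the other side of 1 from the shares of all cells; the cause was not tested for any of these except the denominator. Over all 12 classes 63 of 75 alternative share ratios moved by less than their interval. Of 672 list medians under alternatives 516 stayed within the limit for no change. Of 37 named genes within 1.5-fold 17 changed sides of 1 in 29 of 370 values, 11 when scaled by the median of gene ratios, 9 at equal class make-up, 7 with each barcode weighted equally and 2 without the cluster led by acinar genes. Of 132 named genes past 1.5-fold 5 did so in 5 of 1319 values, all at equal class make-up: Col3a1 at 1.25, Hbb-bs at 1.30, Igkc at 1.10, Saa3 at 1.05 and Tpsb2 at 0.857. Leaving out the 102 shared barcodes, or the cluster led by acinar genes, was chosen after seeing the data; it gave 1006 and 4965 or 1021 and 4736 genes higher and lower. Depth limits genes near 1 CPM and classes of few cells such as the 43 mast or basophil-like cells of the control.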

Other observations

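Vessel genes were close to all genes in the whole-library comparison. Of 20 measured angiogenic and vessel genes 0 were higher and 5 lower, beside 7.04% and 34.9% of all genes. Their median log2 ratio was -0.32, beside -0.34 for all genes. Vcam1, which leukocytes bind, and Apln, a peptide of sprouting vessel tips, went from 288 to 121 CPM and from 9.73 to 4.29 CPM. Aqp1, a water channel, had a ratio of 2.44 (2.25 to 2.64) within vessel endothelial-like cells, and Kdr, the main VEGF receptor, one of 0.799 (0.750 to 0.851). Of 19 prostaglandin and leukotriene genes 1 was higher and 5 were lower, near or below the 7.04% and 34.9% of all genes. Ptgis, which makes prostacyclin, went from 63.7 to 16.2 CPM and had 0.635 (0.599 to 0.674) within fibroblast-like cells, and Ptger4, a prostaglandin E2 receptor, had a library ratio of 0.588 (0.561 to 0.617). Ltc4s, the leukotriene C4 synthase, went from 16.4 to 30.4 CPM.

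Of 14 measured genes of class I antigen presentation 1 was higher and 1 lower, beside 7.04% and 34.9% of all genes, and the others were within 1.5-fold. The higher one, Psmb8, a subunit of the immunoproteasome, went from 187 to 347 CPM, a ratio of 1.86 (1.83 to 1.90), and was higher in 11 of 12 classes. The lower one, Tapbp, which loads peptide onto class I molecules, went from 507 to 285 CPM, a ratio of 0.563 (0.555 to 0.572), and was lower in 12 of 12 classes. H2-K1 and B2m, the heavy and light chains, had ratios of 0.685 (0.681 to 0.689) and 0.772 (0.768 to 0.775). Of 14 genes of the epithelial-mesenchymal transition 1 was higher and 7 were lower, beside the same shares of all genes, with Zeb2, a repressor of Cdh1, at 459 and 288 CPM and lower in 12 of 12 classes. Within epithelial-like cells 0 of 12 genes of this list were higher and 3 lower, against 7.2% and 27.6% of all genes there. The 3 Bcl2a1 genes, near-identical copies that encode a survival protein, were higher in every class in which they could be evaluated, with library ratios of 2.91 (2.82 to 3.01), 3.86 (3.79 to 3.93) and 2.99 (2.88 to 3.10); they were picked after their values were seen.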
